A study of Mus musculus with 6 samples.

Results

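Heat shock and chaperonin genes were followed in single cells of mouse melanoma. The genes were chosen by name, as symbols that start with Hsp, Dnaja, Dnajb, or Cct followed by a subunit number. Tcp1, Hsf1, Bag3, Stip1, and Ptges3 were added. Left out were pseudogenes, the chaperonin gene Cct2, and the endoplasmic reticulum chaperones Hspa5, Hsp90b1, Dnajb9, and Dnajb11. This gave 56 of the 25215 genes listed. The rule uses names and no measured values, but it was set with earlier results of these data known. Of the 56 genes, 43 had a value above 0 in more than 5 retained cells and were compared between conditions, among 11264 genes in all. The name rule is wider than the cytosol. It also takes 4 mitochondrial chaperones (Hspd1, Hspe1, Hspa9, and Dnaja3), 3 genes of the endoplasmic reticulum (Dnajb12, Dnajb14, and Hspa13), and 3 genes that are heat shock proteins by symbol only: Hspg2, which encodes the matrix proteoglycan perlecan, Hspb11, an intraflagellar transport protein, and Hspbap1, a protein that binds Hspb1. All of these are included in the counts and medians over the 56 and 43 genes below, and their values are also given by role.

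The tumors came from 6 C57BL/6 mice, with 2 in each of 3 conditions. B16 is the mouse melanoma line B16-F10, B16PD1 is the same line in mice that received 200 µg of anti-PD1, an antibody that blocks an inhibitory receptor of T cells, starting on day 5 and repeated on days 8 and 11, and R499 is an untreated tumor line that was derived from a B16 tumor that relapsed after radiation and anti-CTLA4. In every mouse 50000 cells were placed under the skin of the flank, and on day 15 CD45-negative cells were sorted and sequenced with the full-length SMART-Seq protocol on the ICELL8 system. The study reports injection of both flanks. Whether a tumor named below holds cells of 1 flank or of both is not stated. R499 is 1 derived line, so a difference between R499 and B16 holds for these lines only. Tumors are named as in the deposited columns (B16007, B16008, B16PD1000, B16PD1002, R499015, and R499016), and the names do not show which of the 2 registered samples of a condition each one is. Values are TPM, transcript abundances that are corrected for transcript length and scaled to the same total in each cell, so a TPM is a share and not an amount, and the number of reads behind it is unknown. In a mean over the cells of a tumor, fewer cells with a gene and less of its RNA per cell cannot be told apart, so the share of cells is given beside the mean for the genes that matter most.

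Heat shock proteins are chaperones: they hold, fold, and refold other proteins. HSP70 binds short exposed stretches with the help of DnaJ proteins, which start its ATP cycle, and of exchange factors, which end it, and HSP90 takes over many clients such as kinases and steroid receptors through the adaptor Stip1. The chaperonin TRiC is a barrel of related subunits that folds actin and tubulin, and small heat shock proteins keep unfolded proteins from clumping. Some of these genes are on in every cell, while others are switched on by the transcription factor Hsf1 when unfolded proteins accumulate, as after heat, oxidative stress, or the handling of tissue. Tumor cells are known for high levels of HSP90 and of the constitutive HSP70.

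Hsf1 binds as a trimer to heat shock elements, which are built from the unit GAA and its reverse complement TTC in alternation with 2 bases between them. Elements of 3 units (GAANNTTCNNGAA or TTCNNGAANNTTC) were searched on both strands in the RefSeq windows of GRCm38.p6, from 250 bases before to 50 bases after a start site, which matched 48 of the 56 genes. Such an element was found for 4 of the 48 genes (8.33%), namely Dnajb6, Hspd1, Hspe1, and Hsph1, and for 0.662% of all 27025 genes with a window. These sites are shown because they are the longest matches among the genes. Capitals mark the matched units, which begin at -89 from the start site of Hspe1, at -46 in Dnajb6, and at +36 in Hsph1. Hspd1 and Hspe1 are divergent neighbors that share 1 site, printed once in the direction of Hspe1 and made of 2 overlapping matches.
Hspe1 (chr1:55088053-55088082, + strand): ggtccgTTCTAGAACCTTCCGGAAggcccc
Dnajb6 (chr5:29735844-29735872, + strand): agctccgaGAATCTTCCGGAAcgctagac
Hsph1 (chr5:149636287-149636308, - strand): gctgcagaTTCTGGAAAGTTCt

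The shorter element of 2 units (GAANNTTC or TTCNNGAA), which lies inside every longer one, was found in the windows of 17 of the 48 genes (35.4%) and of 17.0% of all genes. As inducible by heat, 8 genes had been listed (Hspa1a, Hspa1b, Dnajb1, Dnaja1, Hsph1, Hsp90aa1, Hspb1, and Bag3), and 12 as constitutive (Hspa8, Hsp90ab1, Hspa4, Dnaja2, Ptges3, Tcp1, Cct3, Cct4, Cct5, Cct6a, Cct7, and Cct8). With a window were 7 inducible genes, of which 6 held the short element, and 9 constitutive genes, of which 2 held it. The upstream bases of 3 inducible genes are shown because their transcripts were found in few cells and the gene pair Hspa1a and Hspa1b cannot be told apart with certainty. Each run is the strand of the gene, from 250 bases before its start site to the last base before it, with the short element in capitals.
Hspa1b (chr17:34959239-34959488, - strand): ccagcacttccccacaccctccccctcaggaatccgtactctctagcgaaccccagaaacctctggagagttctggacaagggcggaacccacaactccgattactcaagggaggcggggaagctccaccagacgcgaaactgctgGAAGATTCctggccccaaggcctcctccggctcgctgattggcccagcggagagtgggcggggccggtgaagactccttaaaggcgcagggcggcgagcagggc
Hspa1a (chr17:34972157-34972406, - strand): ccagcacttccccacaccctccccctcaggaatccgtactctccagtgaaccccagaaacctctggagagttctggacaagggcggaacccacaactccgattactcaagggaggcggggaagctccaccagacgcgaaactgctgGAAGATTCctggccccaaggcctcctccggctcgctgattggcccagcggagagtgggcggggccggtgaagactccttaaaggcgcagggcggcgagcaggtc
Hspb1 (chr5:135887669-135887918, + strand): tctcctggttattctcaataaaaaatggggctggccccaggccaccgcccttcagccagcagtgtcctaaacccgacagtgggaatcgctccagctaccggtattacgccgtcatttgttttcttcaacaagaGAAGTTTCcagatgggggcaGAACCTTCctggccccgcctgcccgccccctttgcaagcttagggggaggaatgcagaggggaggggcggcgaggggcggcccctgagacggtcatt
Over the whole window of 300 bases, Hspa1a and Hspa1b were the same at 296 positions (98.7%). In both, the first base of GAAGATTC lay at -104 from the start site. In Hspb1, GAAGTTTC began at -117 and GAACCTTC at -97. A match is a run of letters, and no binding was measured here.

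Of 602 cells, 507 were retained (84.2%), with 75 to 91 per tumor, by the study's limits of more than 1000 genes detected and less than 10% mitochondrial TPM. The study also required a minimum of mapped reads, which could not be applied here. It reports fewer retained cells, so the cells used here are not the same set. A gene is called detected in a cell where its TPM is above 0. Genes detected per cell, which stand in for depth, had a median of 3141 in R499015, the lowest tumor, and 3838.5 in B16PD1002, the highest. All 7 melanocyte markers were present (65.1% to 100% of cells), with a summed TPM of 14048 to 17188 per tumor. Of 12 immune markers, 8 were detected, the most frequent in 5.13% of cells, and Cd3d, Trac, and Nkg7 were among those at 0. The summed TPM of the immune markers came to 159 and 1.98 in B16, 4.15 and 196 in B16PD1, with 4.10 and 3.09 in R499. Of 6 fibroblast and 4 endothelial markers, 4 and 2 were detected, with sums of at most 2.53 TPM per tumor, and the keratinocyte markers Krt5 and Krt14 were at 0.

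The chaperone genes made up 0.992% to 1.14% of all TPM of a tumor, lowest in R499016 and highest in B16008. The 6 most abundant (Hspa8, Hsp90aa1, Hsp90ab1, Hspe1, Cct7, and Cct8) held 65.4% of this sum. Detected in over 90% of retained cells were 14 genes: Hspa8, both HSP90 genes, Dnaja1, the 7 chaperonin genes that were tested, and the mitochondrial Hspd1, Hspe1, and Hspa9. In 10% to 90% of cells were 22 genes, and 7 further genes were tested but found in under 10%. Of the 13 genes that were not tested, Hspa1a, Hspa1l, Hspa12a, Dnaja4, Cct6b, Hspb7, Hspb9, and Hspg2 were detected in at least 1 and at most 5 retained cells. Dnajb3, Dnajb7, Dnajb8, Cct8l1, and Hspb3 were listed at 0 in all 507 cells, which allows a share of cells of up to 0.592% by the rule of 3 cells.

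**Figure D1:**
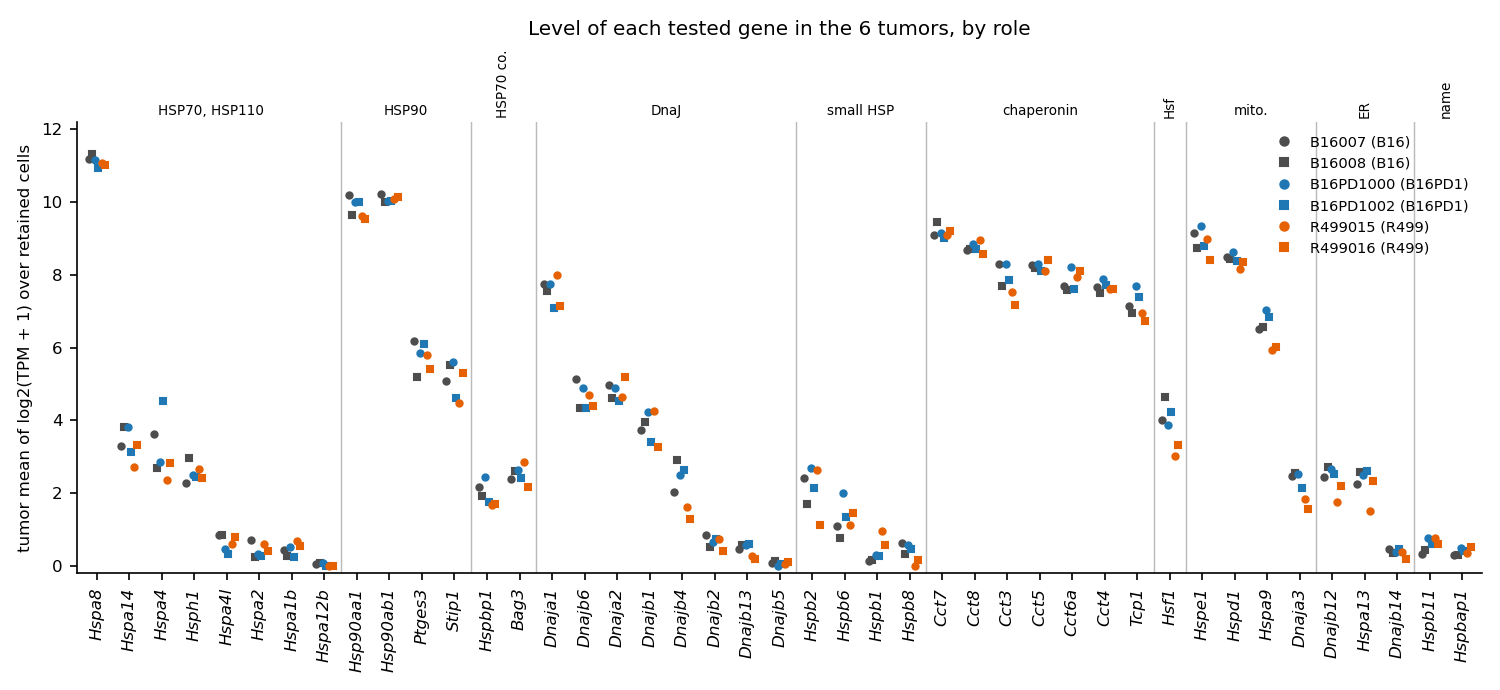
Level of the 43 tested genes in each of the 6 tumors, ordered by role and by mean TPM. The vertical axis is the mean over the retained cells of a tumor of log2(TPM + 1), circles and squares are the 2 tumors of a condition, and a reader should see that the spread between genes, from Hspa8 at 10.92 to 11.31 down to genes near 0, is far wider than the spread between tumors.

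Hspa8, the constitutive HSP70 that also strips clathrin from vesicles, was the most abundant of these genes and was detected in every retained cell. Its mean TPM reached 2448 and 2865 in B16, 2439 and 2165 in B16PD1, with 2341 and 2265 in R499. Both B16 tumors lay above the other 4, although B16007 did so narrowly, and B16PD1 and R499 overlapped. Of the summed TPM of Hspa8, Hspa1a, Hspa1b, Hspa1l, and Hspa2, Hspa8 (chr9:40800984-40810087 of GRCm38) supplied 99.7% (median of 6 tumors, range 99.5% to 99.9%). Hspa14 was not in this sum. The stress-inducible copies Hspa1b (chr17:34956436-34959238) and Hspa1a (chr17:34969190-34972156) had a mean of 3.5 and 0.0760 TPM. Hspa2, an HSP70 best known from the testis, had a mean of 3.59 TPM and was detected in 10.3% of cells, and Hspa14, which works at the ribosome, had 49.3 TPM and was detected in 57.0%. The exchange factors of the HSP110 family, Hspa4, Hsph1, and Hspa4l, had means of 39.4, 35.2, and 7.97 TPM. Hspa12b, a distant relative, was detected in 1.18% of cells.

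HSP90 was split almost evenly between its inducible and its constitutive gene. Hsp90aa1 had a mean TPM of 1531 and 1192 in B16, 1343 and 1320 in B16PD1, with 1120 and 1026 in R499, so that the R499 tumors were the 2 lowest. Hsp90ab1 had 1304, 1181, 1169, 1172, 1208, and 1271 in the same order of tumors, with both B16PD1 tumors at the low end, and B16 and R499 overlapping. The share of Hsp90aa1 in the sum of both was 54.0% and 50.2% in B16, 53.5% and 53.0% in B16PD1, with 48.1% and 44.7% in R499. The R499 tumors held the 2 lowest shares. Among the cochaperones, Ptges3, also known as p23, had a mean of 119 TPM, and Stip1, the adaptor between HSP70 and HSP90, had 78.3.

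The DnaJ genes were led by Dnaja1 at 359 TPM, followed by Dnajb6, which keeps glutamine-rich proteins from aggregating, at 97.4, Dnaja2 at 94.8, and Dnajb1, the main stress-induced partner of HSP70, at 48.4. Dnajb4 had 23.4 TPM, Dnajb2 8.29, Dnajb13, a protein of moving cilia, 4.48, and Dnajb5 0.403. The exchange factors Hspbp1 and Bag3, the latter a partner of Hspb8 in selective autophagy, had 38.2 and 22.8 TPM. Bag3 was detected in 51.3% of retained cells, with shares by tumor of 50.5% and 50% in B16, 54.7% and 50% in B16PD1, with 58.0% and 44.0% in R499. The 2 R499 tumors held both the highest and the lowest of these shares.

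The 4 small heat shock genes tested, all named Hspb, were each found in a minority of cells. Hspb2 had a mean of 69.0 TPM, but 252 bases of its exons lie opposite exons of Cryab, itself a small heat shock protein with 382 TPM, and counting by strand is not stated, so the reads of the pair cannot be told apart. Hspb6, also known as HSP20, had 21.2 TPM and shares 122 and 3 exon bases with Proser3 and Lin37 on the other strand. Hspb1, or HSP27, and Hspb8 were detected in 6.51% and 6.90% of cells, at a median of 75.7 and 42.1 TPM where detected. Exons of 12 of the 56 genes overlap those of another gene that was detected here, among them Dnajb13 with Ucp2 and Tcp1 with Mrpl18 and Acat3.

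All 7 tested chaperonin genes were abundant. Cct7 had a mean of 686 TPM, Cct8 585, Cct3 466, Cct5 391, Cct6a 358, Cct4 326, and Tcp1, the alpha subunit, 248. The summed chaperonin genes, which do not include Cct2, ranged from 2910 TPM in the lowest to 3288 TPM in the highest tumor. This range was 2316 to 3040 for cytosolic HSP70 with HSP110 and 2505 to 3032 for HSP90 with its cochaperones. Cct6b, which is known from the testis, was detected in 2 cells. In mitochondria, Hspe1 and Hspd1, which form the HSP60 and HSP10 chamber, had 811 and 463 TPM, Hspa9, the HSP70 of the matrix, had 153, and its partner Dnaja3 had 20.3. The endoplasmic reticulum genes Dnajb12, Hspa13, and Dnajb14 had 25.3, 18.7, and 1.28 TPM. Hspb11 and Hspbap1 had 22.3 and 3.99.

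The inducible HSP70 pair was found in a subset of cells of every tumor. TPM above 0 of Hspa1a or Hspa1b was seen in 57 of 507 retained cells (11.2%, 95% Wilson interval 8.78% to 14.3%, counting error only), of which 54 had Hspa1b only, 2 had Hspa1a only, and 1 had both. By tumor these were 10 of 91 cells in B16007, 4 of 86 in B16008, 11 of 86 in B16PD1000, 6 of 88 in B16PD1002, 15 of 81 in R499015, and 11 of 75 in R499016. For B16 the mean share was 7.82% ± 4.48 (SD, n = 2), for B16PD1 it was 9.80% ± 4.22, and for R499 it was 16.6% ± 2.72. Both R499 tumors, at 18.5% and 14.7%, lay above the other 4, the highest of which was B16PD1000 at 12.8% (the interval of R499015, 11.6% to 28.3%, overlaps those of these tumors except B16008, 1.82% to 11.4%, and that of R499016, 8.39% to 24.4%, overlaps all of them). Cells with the pair had a median of 4262 genes detected against 3439.5 in the other cells, so that the share moves with depth, whose part in it was not tested. Summed as 1 gene, the pair differed between R499 and B16 by 0.30 ± 0.14 (SE) on the scale of the tumor mean of log2(TPM + 1) (limma, unadjusted p = 0.0492, adjusted p = 0.473 over all genes). RSEM, which the authors used, spreads reads that match more than 1 gene, and how many of the pair's reads do is unknown.

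**Figure D2:**
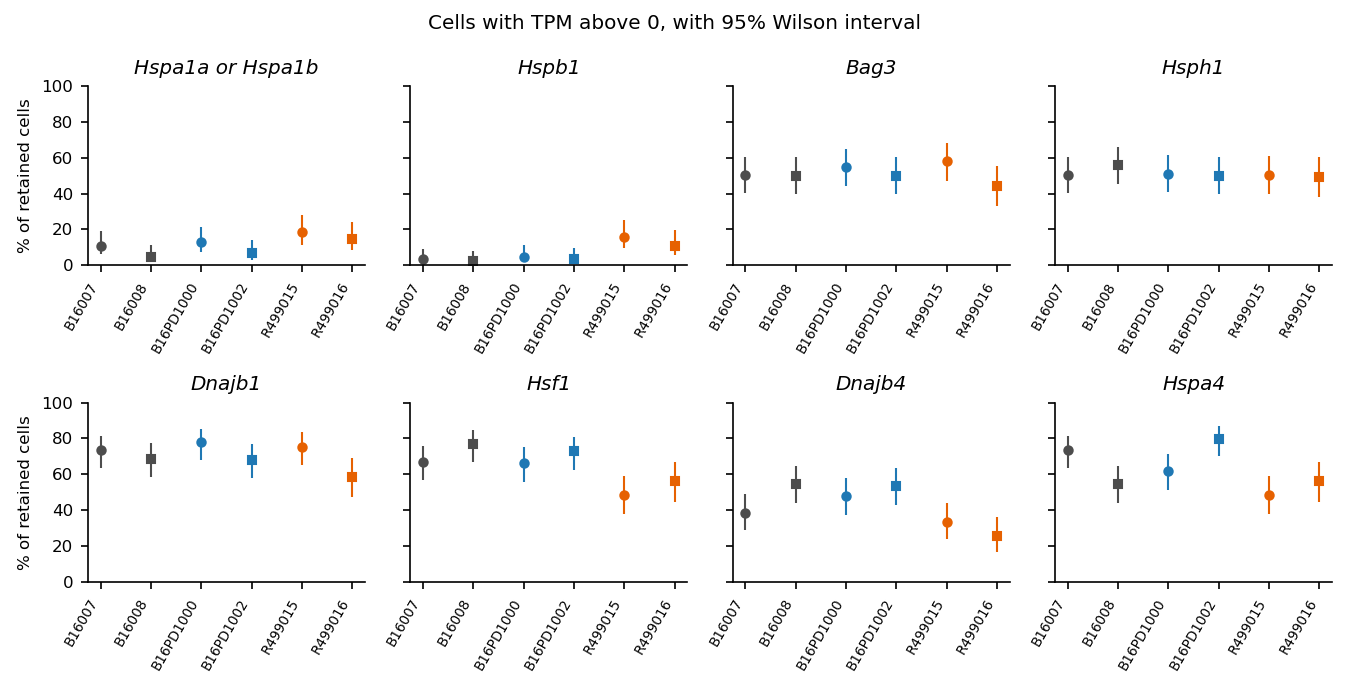
Percent of the retained cells of each tumor with TPM above 0 of the HSP70 pair, Hspb1, Bag3, Hsph1, Dnajb1, Hsf1, Dnajb4, and Hspa4. Bars are 95% Wilson intervals, which cover counting error only, and colors are the conditions B16 (grey), B16PD1 (blue), and R499 (orange), so that a reader can see Hspb1 at 16% and 10.7% in R499 against 2.33% to 4.65% elsewhere and Hsf1 at 48.1% and 56.0% against 66.3% to 76.7%.

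Cells with the HSP70 pair were set beside the other cells of the same tumor, in a line fitted within each tumor to log2(TPM + 1) with the number of genes detected as a second term. This is a description of cells chosen by 1 gene pair, and cells are not replicates. Over the 35 other chaperone genes detected in at least 10% of cells, 5 (14.3%) were higher in the cells with the pair in 6 of 6 tumors, against 1.67% of the 8138 genes compared. These were Dnajb1, Hsph1, Bag3, Hsp90aa1, and Hsp90ab1. The first 4 belong to the 5 inducible genes compared, of which the fifth, Dnaja1, was higher in 5 tumors. Dnajb1 was higher by 0.76 and 2.83 in the B16 tumors, by 1.70 and 0.93 in B16PD1, and by 0.63 and 2.16 in R499, with a median of 1.32 on the log2 scale. The median difference was 0.97 for Hsph1, 0.80 for Bag3, 0.47 for Hsp90aa1, and 0.25 for Hsp90ab1. Of the 12 constitutive genes, 1 was higher in 6 tumors, and their median difference was 0.099, against 0.80 for the inducible genes and -0.038 for all genes. Hspa8, the constitutive counterpart of the pair, had a median difference of 0.25 (higher in 5 tumors), and Hsf1 one of -0.50 (higher in 1 tumor). The small heat shock gene Cryab, which the name rule does not take, had one of 1.20 (higher in 5 tumors). Without the term for genes detected, 4.62% of all genes and 6 of the 35 were higher in 6 tumors, and with each cell's mean subtracted instead these were 2.42% and 3, namely Dnajb1, Hsph1, and Bag3. In B16008 only 4 cells carry the comparison.

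**Figure D3:**
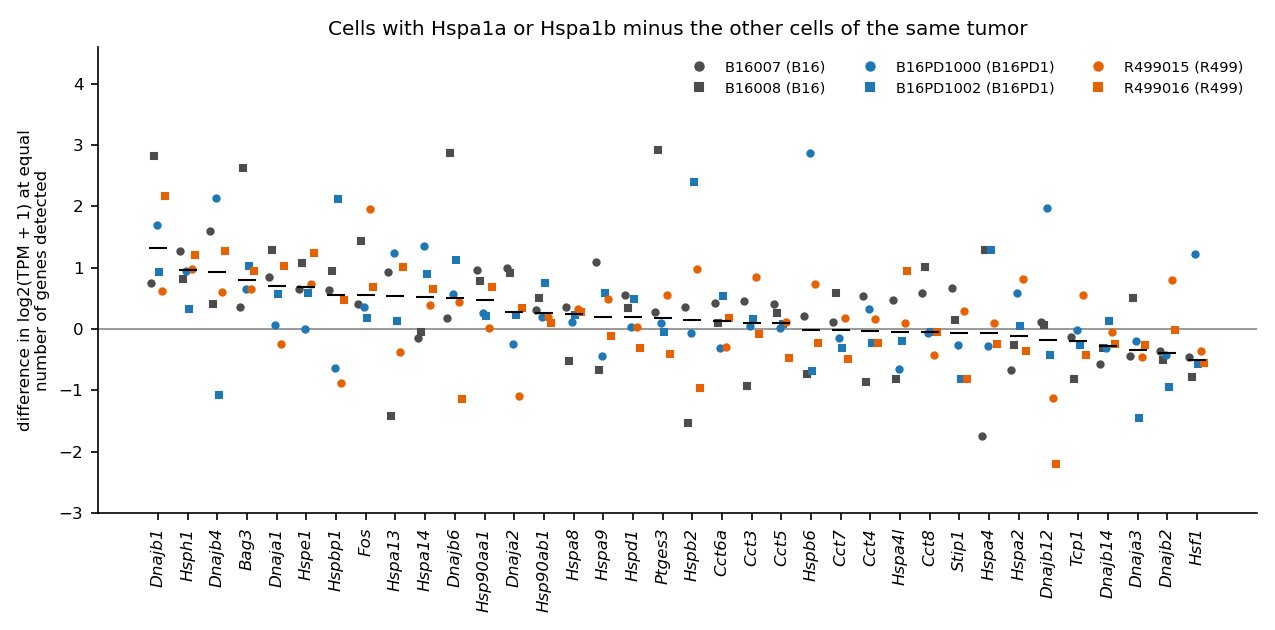
Difference between cells with Hspa1a or Hspa1b and the other cells of the same tumor, in log2(TPM + 1) at equal number of genes detected, for the 35 other chaperone genes detected in at least 10% of cells and for Fos. Points are tumors and black bars their medians, and Dnajb1, with points from 0.63 to 2.83, stands at the left end with every tumor above 0.

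Immediate early genes, which are switched on within minutes of stimulation and of tissue dissociation, were set beside these values. Fos, a subunit of the AP-1 factor, was higher in cells with the HSP70 pair in 6 of 6 tumors (median 0.55), and was 1 of the 11 immediate early genes compared to be so. The summed TPM of the 12 immediate early genes was 586 and 549 in B16, 498 and 520 in B16PD1, with 378 and 466 in R499. Both R499 tumors had the lowest sums. For R499 minus B16, the differences of 11 of the 12 were below 0, with a median of -0.42, against 64.1% of all genes and a median of -0.073. The part of cell handling in the levels of the inducible genes was not tested.

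Inducible and constitutive genes were compared between cells of 1 tumor. The mean of log2(TPM + 1) over the 7 inducible genes that were tested had a median over tumors of 3.86, with an SD between cells of 1.03, and that over the 12 constitutive genes a median of 7.62, with an SD of 0.86. Pearson r between both means was 0.31 as the median of 6 tumors, from 0.24 in B16008 to 0.43 in B16PD1002, but both means follow the number of genes detected, with a median r of 0.35 and 0.57. After each cell's mean over all genes was subtracted, r was 0.13 as the median, from 0.037 in R499016 to 0.23 in R499015, and after removal of a line on the number of genes detected it was 0.16. These correlations are over 75 to 91 cells of a tumor, share a library and the scaling of TPM within a cell, and are weak.

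**Figure D4:**
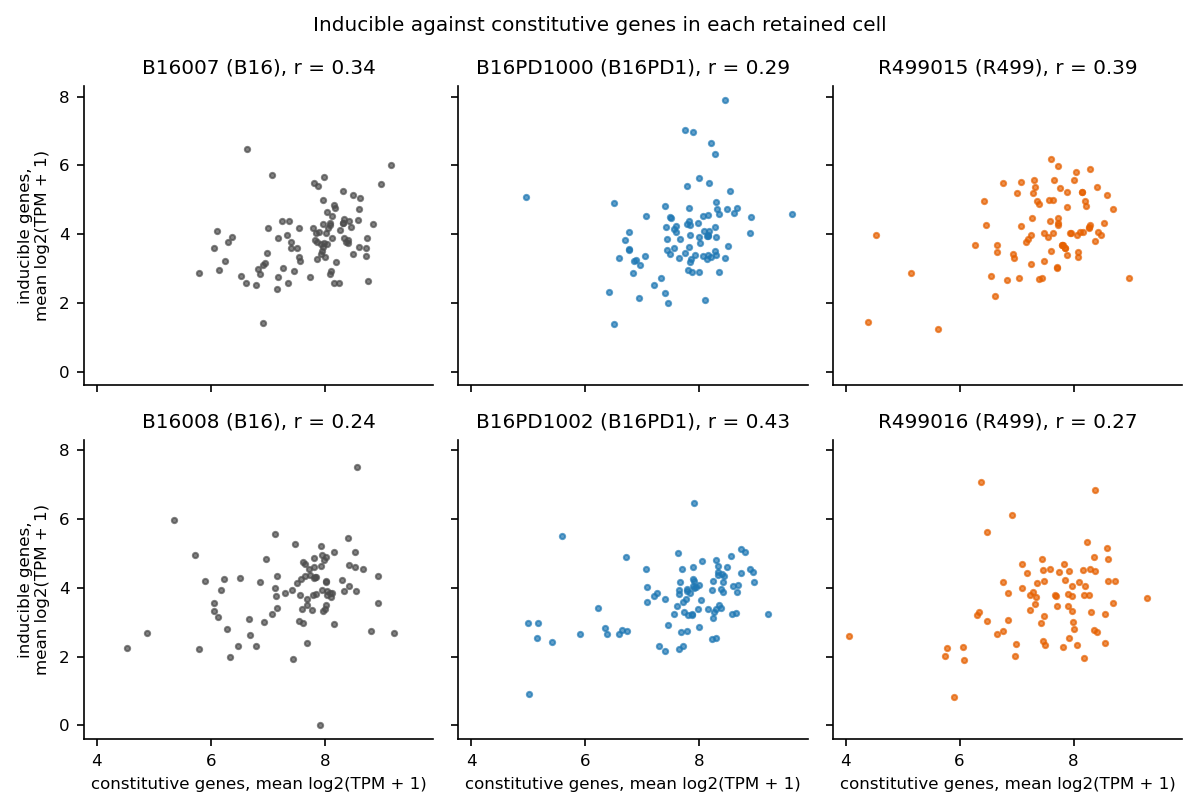
Mean log2(TPM + 1) of the 7 inducible genes against that of the 12 constitutive genes in each retained cell, with 1 panel per tumor and 1 column per condition. The value of r above a panel is Pearson's r over its cells before any correction for the number of genes detected, and lies between 0.24 and 0.43.

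Pairs of genes were compared in the same way, with the line on the number of genes detected removed. Over the 630 pairs of the 36 genes detected in at least 10% of cells, the median r was 0.020, and r was above 0 in 6 of 6 tumors for 30 pairs (4.76%). Among the 15 pairs of inducible genes this held for 7 (46.7%), among 66 pairs of constitutive genes for 5 (7.58%), and among 72 mixed pairs for 3 (4.17%). The inducible pair with the highest median was Dnajb1 and Hspa1b, at 0.18 (0.079 to 0.28). Hspa8 and Hsp90ab1, the constitutive HSP70 and HSP90, had a median of 0.22 (0.061 to 0.34). For this pair subtraction of the cell mean gave 0.51, and the part of the subtraction itself in this value was not tested. Of 8093 genes outside the list, those most like the mean of the inducible genes, with the cell mean subtracted, were Vim, Zfand2a, Pkm, Ldha, Actg1, Gapdh, Eno1, and Chic2, with a median r of 0.23 down to 0.18. With the line removed instead, Vim and Zfand2a had rank 2 and 3 at 0.21 and 0.19, and of the 5 genes among the 8 that were detected in every cell, Pkm had rank 6, Ldha 14, Actg1 32, Gapdh 44, and Eno1 58.

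In B16PD1 minus B16, which asks what anti-PD1 did to the same line, 0 of the 43 chaperone genes passed an adjusted p of 0.05 with limma, and 0.0% of all genes tested did. At an unadjusted p under 0.05 there were 2 (4.65%), Hspa4l and Hspb6, against 4.69% of all genes (3.02% higher and 1.67% lower in B16PD1). Hspa4l, an HSP110 exchange factor, had a tumor mean of log2(TPM + 1) of 0.83 and 0.85 in B16 and 0.47 and 0.32 in B16PD1, a difference of -0.45 ± 0.16 (SE, adjusted p = 0.989). Hspb6 had 1.09 and 0.76 in B16 and 2.01 and 1.35 in B16PD1, a difference of 0.76 ± 0.29 (adjusted p = 0.989). In neither gene did the 2 conditions overlap, as in 9 genes in all that were higher in B16PD1 (17.9% of all genes were) and 3 that were lower (15.4%). The largest difference after that of Hspb6 was 0.52 ± 0.47 for Hspa4, of which the tumors overlap, and then 0.49 ± 0.30 for Tcp1. Without B16PD1002, the Hspa4 difference turned to -0.33. The median difference was 0.036 over the 43 genes and 0.012 over all genes, and 17 of the 43 were below 0, against 47.0% of all genes. All differences are on the log2(TPM + 1) scale, which understates those of genes at low TPM.

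In R499 minus B16, which asks how the relapsed line differs from its parent, 0 of the 43 genes passed the adjusted p, against 0.0621% of all genes. At an unadjusted p under 0.05 there were 6 (14.0%), against 10.5% of all genes. Hspb1 was the 1 gene among them with a higher level in R499 (2.42% of all genes were higher and past this threshold), and Hsf1, Dnajb4, Dnaja3, Hspb8, and Dnajb13 were lower (8.12%).

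Hspb1 (chr5:135887919-135889563), which binds actin as well as unfolded proteins, was detected in 3 of 91 and 2 of 86 cells in the B16 tumors, 4 of 86 and 3 of 88 in B16PD1, and 13 of 81 and 8 of 75 in R499. Its mean TPM was 0.876 and 2.85 in B16, 6.77 and 7.77 in B16PD1, with 17.8 and 5.75 in R499. The R499 tumors were the 2 highest by share of cells, but by mean TPM R499016 lay below both B16PD1 tumors. Its log2 level was 0.14 and 0.15 in B16, 0.30 and 0.26 in B16PD1, with 0.97 and 0.56 in R499, a difference of 0.62 ± 0.14 for R499 minus B16 (limma, unadjusted p = 0.000297, adjusted p = 0.124). The adjusted p was below 0.05 with all cells (0.0434), with each cell's mean subtracted (0.0243), and without R499016 (0.0475), and it was 0.747 without R499015, with a range of 0.0243 to 0.784 over all alternatives.

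Hsf1 (chr15:76477422-76501913), the factor that drives the heat shock response, was detected in 67.0% and 76.7% of cells in B16, 66.3% and 72.7% in B16PD1, with 48.1% and 56.0% in R499. Its log2 level was 4.0 and 4.65, 3.87 and 4.23, and 3.03 and 3.32 in the same order, and R499 did not overlap either of the other conditions. The difference was -1.15 ± 0.35 for R499 minus B16 (adjusted p = 0.310) and -0.88 ± 0.35 for R499 minus B16PD1 (adjusted p = 0.417). Its mean TPM did not show the same order: it was 68.1 and 81.5 in B16, 63.0 and 81.5 in B16PD1, with 66.6 and 70.2 in R499. Fewer R499 cells had Hsf1 detected, therefore, while its share of all transcripts was alike, and with the log2 of the mean TPM the difference from B16 shrank to -0.12. The median of genes detected per cell was lowest in R499015 (3141) and was 3682 in R499016, within the range of the other 4 tumors (3388.5 to 3838.5). By the mean of genes detected per cell, however, both R499 tumors were lowest, at 3332 in R499015 and 3456 in R499016. The other 4 tumors had means of 3496 to 3787. With a covariate for the mean number in each tumor the Hsf1 difference from B16 was -1.56. The counts of chaperone genes at an unadjusted p under 0.05 were then 3 of 43 in R499 minus B16 and 2 of 43 in R499 minus B16PD1. Over all genes the shares were 6.91% and 5.36%, beside 10.5% and 10.2% without the covariate.

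The other 4 genes at a lower level in R499 than in B16 were spread over roles. Dnajb4 had log2 levels of 2.03 and 2.91 in B16, 2.51 and 2.64 in B16PD1, with 1.62 and 1.30 in R499, and its mean TPM was 13 and 11 in R499 against 21.4 to 37.9 in the other 4 tumors. Its difference from B16 was -1.01 ± 0.34 (adjusted p = 0.350). Dnaja3, the DnaJ protein of mitochondria, had 2.47 and 2.55 in B16 and 1.83 and 1.57 in R499, a difference of -0.81 ± 0.30 (adjusted p = 0.380). Hspb8 was detected in 0 of 81 and 2 of 75 cells in R499 and in 5.81% to 11.0% of cells elsewhere, with a difference of -0.38 ± 0.13 (adjusted p = 0.349). Dnajb13 was detected in 6.17% and 2.67% of R499 cells and in 8.79% to 12.8% elsewhere, with a difference of -0.28 ± 0.12 (adjusted p = 0.445). The adjusted p of these 4 differences stayed at 0.25 or above in the alternatives run, and with the covariate the Hspb8 difference shrank to -0.095.

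Among the heat-inducible genes other than Hspb1, the 2 R499 tumors lay above both B16 tumors in Hspa1b and below both in Hsp90aa1, and overlapped with them in the other 4. The differences of R499 minus B16 were 0.25 ± 0.14 for Hspa1b, 0.02 ± 0.33 for Bag3, -0.09 ± 0.33 for Hsph1, -0.09 ± 0.39 for Dnajb1, -0.09 ± 0.34 for Dnaja1, and -0.34 ± 0.24 for Hsp90aa1, with an adjusted p of 0.547 or more. In Dnajb1, Bag3, and Dnaja1 the 2 R499 tumors spanned most of the range of all tumors, such as 4.26 and 3.26 for Dnajb1, where R499015 was highest and R499016 lowest. Of the constitutive genes, Cct3 had the largest difference, at -0.65 ± 0.31, and Cct6a the largest above 0, at 0.38 ± 0.30. The median was -0.086 over the inducible, -0.037 over the constitutive, -0.13 over the 43, and -0.073 over all genes. Below 0 were 30 of the 43, against 64.1% of all genes. The 2 conditions did not overlap in 15 genes that were lower in R499 (34.9%, against 30.1% of all genes) and in 6 that were higher (14.0%, against 11.6%).

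**Figure D5:**
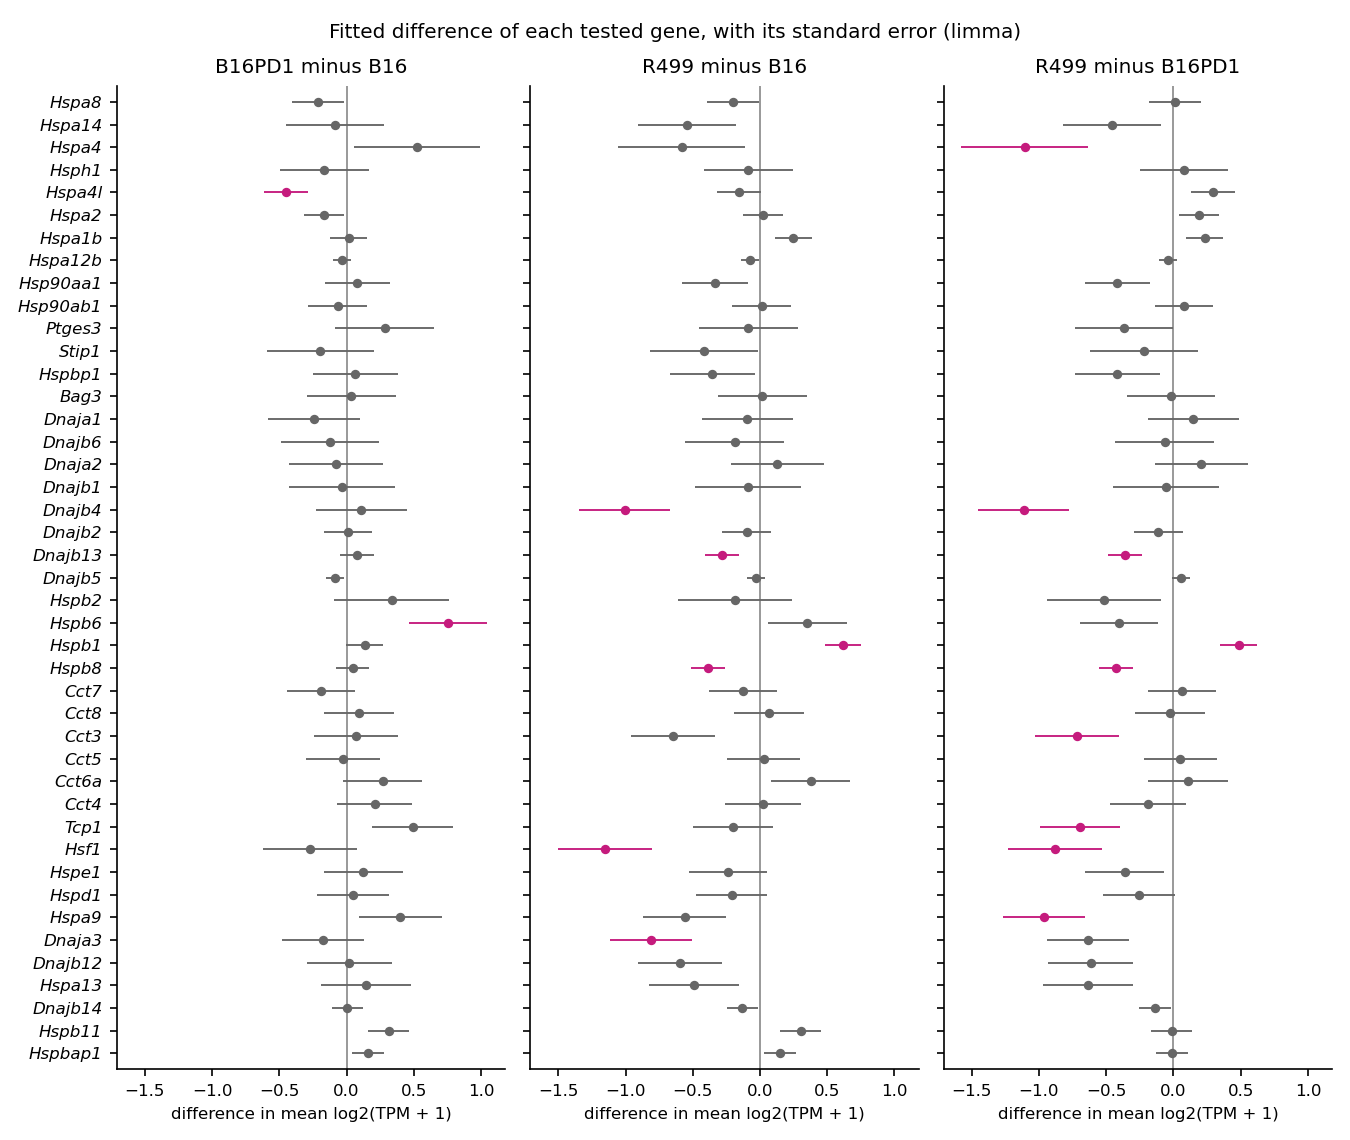
Fitted difference of each of the 43 genes in the 3 comparisons, with bars of 1 standard error from limma, on the scale of the tumor mean of log2(TPM + 1). Magenta marks an unadjusted p under 0.05, which 2, 6, and 9 genes had from left to right, and 0 genes passed after adjustment over 11264 genes.

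In R499 minus B16PD1, 0 of the 43 passed the adjusted p (0.071% of all genes), and 9 (20.9%) had an unadjusted p under 0.05, against 10.2% of all genes. This comparison and the one with B16 share the R499 tumors. Hspb1 was higher in R499, by 0.48 ± 0.14 (adjusted p = 0.285; 1.56% of all genes were higher and past the unadjusted threshold). Lower were 8 genes (8.64% of all genes): Hsf1, Dnajb4, Dnajb13, and Hspb8 again, and Hspa9, Hspa4, Tcp1, and Cct3. Hspa9, known as mortalin, had log2 levels of 7.04 and 6.84 in B16PD1, 5.94 and 6.01 in R499, and 6.5 and 6.58 in B16, so that B16 lay between them, and the difference was -0.96 ± 0.31 (adjusted p = 0.321). Tcp1 had 7.68 and 7.39 in B16PD1 against 6.95 and 6.74 in R499, a difference of -0.69 ± 0.30 (adjusted p = 0.457). The Hspa4 difference of -1.11 ± 0.47 (adjusted p = 0.450) was -0.26 without B16PD1002, whose level of 4.54 stood apart from 2.84 in B16PD1000 and from 2.35 and 2.81 in R499. B16PD1002 also had the highest summed TPM of immune markers, whose part in this value was not tested. The counts for this comparison with the log2 of the mean TPM and with the covariate were 3 and 2 of the 43 genes, against 6.55% and 5.36% of all genes. The median difference was -0.14 over the 43 and -0.089 over all genes, and 30 were below 0, against 67.2% of all genes. The 2 conditions did not overlap in 16 genes that were lower in R499 (31.3% of all genes were) and in 6 that were higher (10.2%).

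By role, the groups are small and their counts were not tested. In R499 minus B16, in which 64.1% of all genes were below 0, the difference was below 0 in 7 of 8 DnaJ genes, 6 of 8 HSP70 and HSP110 genes, 3 of 4 genes of the HSP90 group, 3 of 7 chaperonin genes, 2 of 4 small heat shock proteins, and all 4 mitochondrial and 3 endoplasmic reticulum genes. The medians of these groups ran from -0.49 for the endoplasmic reticulum genes and -0.40 for the mitochondrial ones to 0.02 for the chaperonin and 0.08 for the small heat shock proteins. In R499 minus B16PD1 all 4 mitochondrial and all 3 endoplasmic reticulum genes were again below 0 (67.2% of all genes were), with medians of -0.50 and -0.62. In B16PD1 minus B16, 1 of 4 and 0 of 3 of these were below 0, against 47.0% of all genes.

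Other genes of the pathway were taken from a list of 33, with cochaperones of HSP70 and HSP90, prefoldin, which hands actin and tubulin to TRiC, and the remaining heat shock factors. All 33 were tested and 0 passed the adjusted p in any comparison. At an unadjusted p under 0.05 were 4 (12.1%) in B16PD1 minus B16, 2 (6.06%) in R499 minus B16, and 1 (3.03%) in R499 minus B16PD1, against 4.69%, 10.5%, and 10.2% of all genes. In B16PD1 minus B16 these were Pfdn1, a prefoldin subunit, at 1.02 ± 0.33, Sugt1, a partner of HSP90, at 1.0 ± 0.44, Fkbp5, which binds HSP90 in steroid receptor complexes, at 0.27 ± 0.11, and Serpinh1, the collagen chaperone, at -0.63 ± 0.29. For R499 minus B16, these were Pfdn1 at 1.03 ± 0.33 (adjusted p = 0.337) and Hsf2, the second heat shock factor, at -0.46 ± 0.21 (adjusted p = 0.448). In R499 minus B16PD1 there was Hsf2, at -0.70 ± 0.21 (adjusted p = 0.314). Pfdn1 had log2 levels of 3.95 and 3.57 in B16, 4.90 and 4.67 in B16PD1, with 4.79 and 4.80 in R499, and both B16 tumors lay below the other 4. Hsf2 was detected in 22.0% and 23.3% of cells in B16, 29.1% and 27.3% in B16PD1, with 14.8% and 14.7% in R499. By share of cells R499 was lowest in this factor as it was in Hsf1, but not by the mean TPM of Hsf1. Hsf4 had another order, at 20.9% and 16.3% of cells in B16, 25.6% and 18.2% in B16PD1, with 19.8% and 26.7% in R499. The medians of the 33 differences were 0.095, -0.11, and -0.093 in the 3 comparisons, beside 0.012, -0.073, and -0.089 over all genes.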

How the data were processed

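Reads were aligned by the authors with STAR in 2-pass mode to mm10 (GRCm38) and quantified with RSEM, with versions and annotation not given in the sources used here, and the deposited values are TPM per gene and cell, unfiltered. GATK, also named, was used for variants, which were not analysed here. Read depth is unknown, strand was not stated, and the study's minimum of mapped reads could not be applied to TPM. Doublets were not called.

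Retained were cells with over 1000 genes detected and under 10% mitochondrial TPM, and genes in more than 5 of them. The mean over cells of log2(TPM + 1) per tumor was fitted to all 6 tumors with limma 3.58.1 (R 4.3.3, eBayes with a trend, two-sided, Benjamini-Hochberg over 11264 genes). Tumors of a condition are of 1 line, so the p-values measure the spread between mice. Other steps used Python 3.11.15 with pandas 2.3.3 and numpy 2.4.6, and the fit was tested on simulated data. All cell columns were used.

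Members and gene lists were chosen with earlier results of these data known. Named are inducible and constitutive members, those with a mean over 50 TPM or an unadjusted p under 0.05, Hsf1, Stip1, and the 3 largest differences of each comparison. Alternatives were pseudocounts of 0.1 and 10, the log2 of mean TPM, no filter or a stricter one on genes, all cells, a mitochondrial limit of 5%, subtraction of each cell's mean, genes detected as a covariate, no trend, Hspa1a and Hspa1b summed, and leaving out each tumor. The line on genes detected was added after seeing the data. Gene positions are those of GENCODE vM21, and sequences those of RefSeq.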

Additional observations from a re-analysis of the deposited data

Results flagged for a closer look

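The 95 cells left out by the limits on quality also held transcripts of the inducible HSP70 pair, and in each condition at a share above that of its retained cells, which was 7.82% in B16, 9.80% in B16PD1, and 16.6% in R499. Hspa1a or Hspa1b was detected in 16.7% of the excluded cells of B16 (4 of 24, 95% Wilson interval 6.68% to 35.9%), 19.2% of those of B16PD1 (5 of 26, interval 8.51% to 37.9%), and 22.2% of those of R499 (10 of 45, interval 12.5% to 36.3%). All 19 of these cells were among the 75 excluded for mitochondrial TPM at or over 10% (25.3%, interval 16.9% to 36.2%), and 0 of 24 cells with 1000 genes or fewer had the pair (which allows a share of up to 12.5% by the rule of 3 cells). The intervals cover counting error only and each condition's interval includes the share of its retained cells. Over all conditions, 11.2% of retained cells had the pair (interval 8.78% to 14.3%), which lies below the interval of the 75 cells. R499 supplied 45 of the 95 excluded cells, so this pooled comparison mixes conditions, and the differences were not tested.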

How the results depend on the processing

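Depth in reads is unknown, 2 tumors per condition limit every comparison, and genes found in few cells, such as Hspb1, rest on 2 to 13 cells per tumor. No paired analysis was possible because the columns carry no replicate number of the labels.

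The count of chaperone genes past the adjusted threshold was 0 under every alternative in B16PD1 minus B16 and R499 minus B16PD1. In R499 minus B16 it was 1, Hspb1, with all cells and with each cell's mean subtracted, and 0 to 1 when a tumor was left out, where the 1 was Hspb1 without R499016.

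Counts at an unadjusted p under 0.05 in B16PD1 minus B16 were 1 of 44 with all cells (5.41% of all genes), 1 of 43 with genes detected as a covariate (4.39%), and 4 of 43 without a trend (5.72%). In R499 minus B16 they were 3 of 36 with genes in at least 10% of cells. The share of all genes was then above the 10.5% found without this limit. With the covariate they were 3 of 43 (6.91% of all genes, beside 10.5% without it). In R499 minus B16PD1 they were 3 of 43 with the log2 of mean TPM (6.55%) and 2 of 43 with the covariate (5.36%). Without either change 10.2% of all genes passed in this comparison.

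The median difference in B16PD1 minus B16 ran from -0.068 without B16PD1000 to 0.10 without B16PD1002 and was also below 0 with the log2 of mean TPM (-0.053), a mitochondrial limit of 5% (-0.033), the covariate (-0.028), a pseudocount of 10 (-0.0058), and without B16008 (-0.0051). In R499 minus B16 it was -0.028 with each cell's mean subtracted (0.030 for all genes), -0.042 with all cells, -0.069 with a pseudocount of 10, -0.080 without a filter, -0.20 with a pseudocount of 0.1, and -0.23 without R499015, -0.20 without B16008, -0.087 without B16007, and -0.074 without R499016. In R499 minus B16PD1 it was -0.24 with a pseudocount of 0.1, -0.023 without a filter on genes, -0.0025 with the cell mean subtracted (0.046 for all genes), -0.051 with a pseudocount of 10, -0.066 with the log2 of mean TPM, -0.080 with the covariate, -0.23 without R499015, -0.081 without R499016, and -0.26 (without B16PD1002) to -0.070 (without B16PD1000) with a tumor left out.

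Between inducible and constitutive genes, the median r of 0.13 became 0.31 without centering, 0.23 with all cells, 0.29 in cells above the median number of genes detected, and 0.21 with Spearman's rho. The share of cells with Hspa1a or Hspa1b in B16PD1 was 4.62% at TPM above 10, 16.4% in cells above the median number of genes detected, and 1.32% in the others, and in R499 9.61%, 23.3%, and 11.5%.

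Among 19 differences of named genes and 317 alternatives, 2 changed sign, Hspa4 in B16PD1 minus B16 with a tumor left out (-0.33 without B16PD1002 to 1.37 without B16PD1000) and Hspb8 in R499 minus B16PD1 with the covariate (0.033), and 3, all of Hspb1, passed the adjusted threshold. The causes were not tested.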
